A study of Mus musculus with 8 samples.

Results

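The insulin-like growth factor (IGF) system was followed here as 10 genes in mouse cecal tumors that model gastrointestinal stromal tumor (GIST), a soft tissue cancer of the gut wall whose cells resemble its pacemakers, the interstitial cells of Cajal. The members are the ligands Igf1 and Igf2, the receptors Igf1r and Igf2r, and the binding proteins Igfbp2, Igfbp3, Igfbp4, Igfbp5, Igfbp6 and Igfbp7. They were taken by gene symbol, with earlier results of these data known. All 10 had 1 row each among the 37980 rows (34586 symbols) of the deposited table. RNA sequencing covered 8 tumors from C57BL/6 mice, 4 given vehicle and 4 given tamoxifen. All mice carried Kit V558Delta/+, Etv1 flox/flox and Rosa26 CreERT2/CreERT2. The tumors therefore shared 1 mutant copy of Kit, Etv1 alleles flanked by loxP sites, and a Cre recombinase that tamoxifen activates. Rosa26 is a locus active in most cell types, so Cre was not limited to tumor cells. The vehicle mice received no tamoxifen, which also acts on estrogen receptors, so the drug and the loss of Etv1 cannot be told apart. The labels give no dose, time or age and do not say that each tumor came from another mouse, so a p-value covers only the spread among these tumors, which may be partly technical.

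IGF1 and IGF2 are secreted peptides that activate the receptor tyrosine kinase IGF1R, which signals through insulin receptor substrates, PI3K, AKT and mTOR. IGF2R, the mannose 6-phosphate receptor, has no kinase and removes IGF2 from the cell surface. IGF-binding proteins hold the ligands outside the cell and release them when proteases cut the binding protein. IGFBP7 is a relative that binds IGFs weakly. In the gut, IGF1 and several binding proteins are made mostly by mesenchymal cells, among them smooth muscle and fibroblasts.

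Values are FPKM, fragments per kilobase of transcript, scaled to the mapped fragments of the library, so levels of different genes are compared per length. Read depth is unknown, because no counts were used. Steps between the values of low genes gave each library a depth of 0.835 to 1.16 relative to vehicle replicate 1. Etv1, the floxed gene, measured 34.6, 51.1, 40.4 and 38.6 FPKM in vehicle replicates 1 to 4 and 34.9, 19.7, 31.4 and 17.4 FPKM in tamoxifen replicates 1 to 4. The groups overlapped through tamoxifen replicate 1 (log2 fold change -0.70, SE 0.24, limma adjusted p = 0.13), and the row counts the whole gene, not the floxed exons alone. All 8 markers of GIST and interstitial cells of Cajal reached 1 FPKM in at least 1 library, with a summed level of 1559 to 2291 FPKM in vehicle and 1153 to 1641 FPKM in tamoxifen tumors.

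Igfbp3 rose 2.89-fold after tamoxifen, and none of the other 9 members passed the threshold in either direction. Groups were compared by limma on log2(FPKM + 1), with p-values adjusted over 15023 genes and a threshold of 0.05. A fold change on this scale understates the change of low genes. Among all tested genes 2.38% rose and 3.07% fell, 5.45% in all (358 up and 461 down). With libraries scaled to the same summed FPKM, 154 genes rose and 75 fell. The 10 members, all of which passed the filter on low values, gave 1 call. Their median log2 fold change was 0.17, against 0.01 over all tested genes, with 7 positive and 3 negative.

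**Figure D1:**
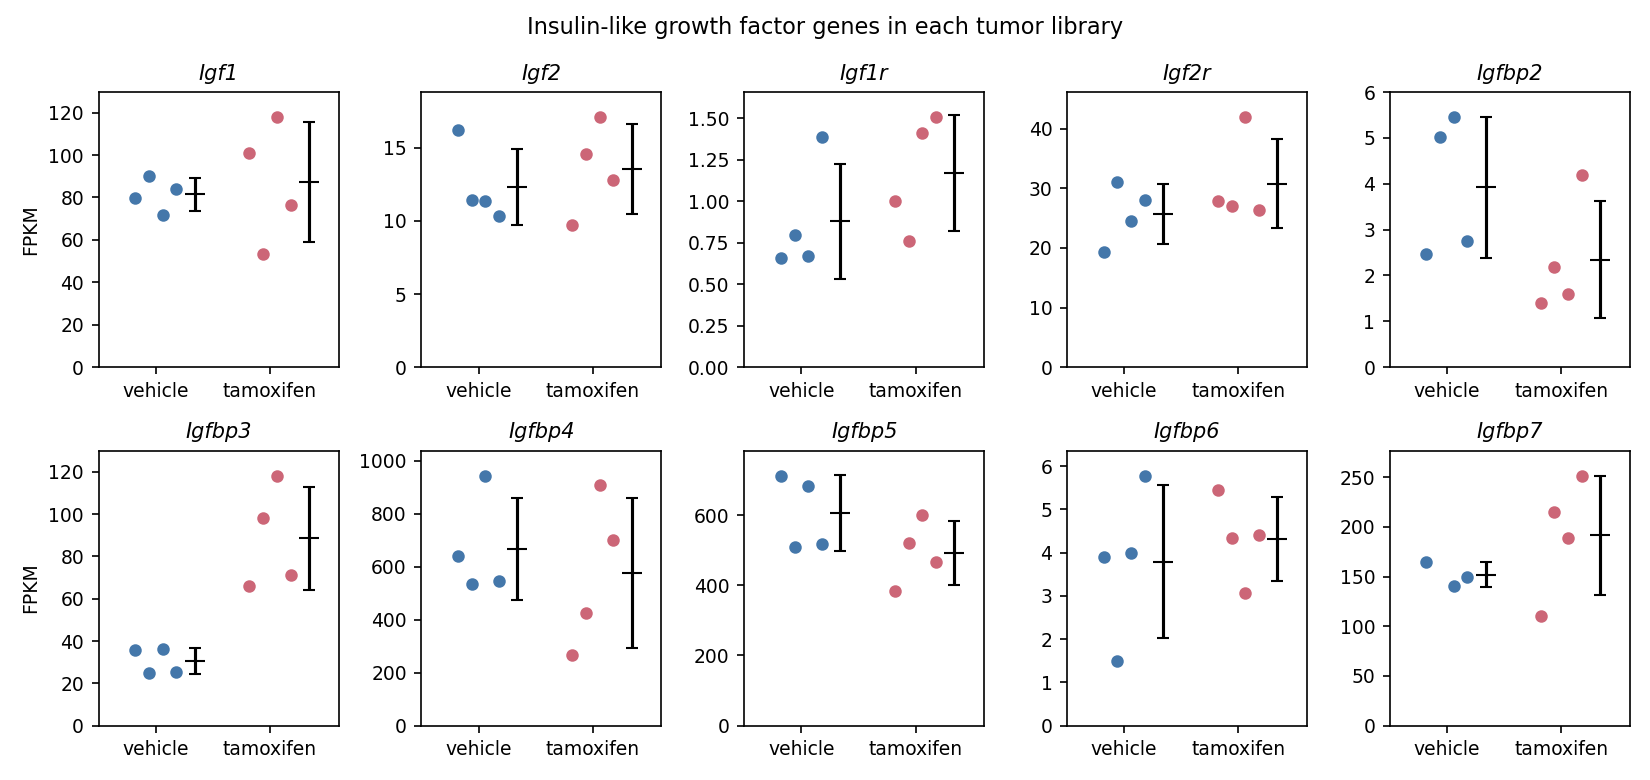
FPKM of the 10 members in each library. Points are the 4 vehicle and 4 tamoxifen tumors in order of replicate, and the bar beside them is the mean ± SD. Each axis starts at 0. Igfbp3 is the panel in which the groups do not overlap (25.1 to 36.2 against 66.0 to 118 FPKM). Igfbp7 has 3 vehicle points, because the estimate of vehicle replicate 2 failed.

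**Figure D2:**
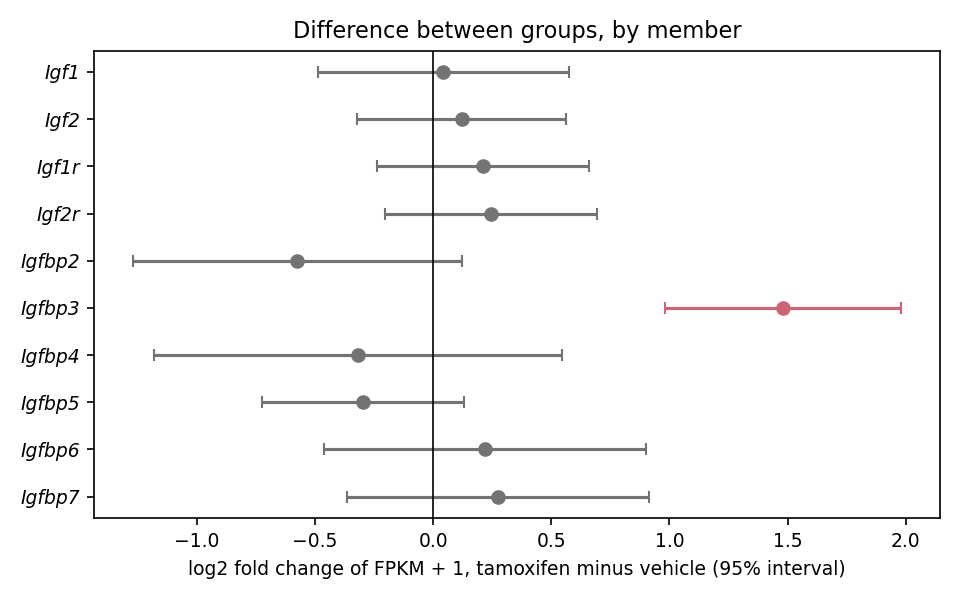
Log2 fold change of FPKM + 1 for each member, tamoxifen minus vehicle, with the 95% interval of the limma fit. The red point is Igfbp3 (1.48, interval 0.98 to 1.98), and the intervals of the 9 grey members include 0.

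Neither ligand passed the threshold. Igf1 measured 79.8, 90.0, 71.8 and 84.0 FPKM in vehicle and 101, 53.5, 118 and 76.4 FPKM in tamoxifen replicates 1 to 4. The vehicle range lay inside the wider tamoxifen range (log2 fold change 0.04, 95% interval -0.49 to 0.57, limma adjusted p = 0.933). Igf2, the fetal ligand, expressed from the paternal copy, measured 16.2, 11.4, 11.4 and 10.3 FPKM in vehicle and 9.75, 14.6, 17.1 and 12.8 FPKM in tamoxifen replicates 1 to 4. The groups overlapped here too (log2 fold change 0.12, 95% interval -0.32 to 0.56, limma adjusted p = 0.755). Igf1 made up 86.8% ± 2.74 of the summed ligand FPKM in vehicle and 85.7% ± 5.27 in tamoxifen tumors. Intervals this wide do not show that the ligand levels stayed the same. In mm9, Igf1 is listed on chromosome 10 at 87289122 to 87399792 and Igf2 on chromosome 7 at 149836673 to 149856261.

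The signalling receptor was scarce. Igf1r is listed on chromosome 7 at 75097713 to 75371484 in mm9. Igf1r measured 0.656, 0.797, 0.673 and 1.39 FPKM in vehicle and 1.00, 0.760, 1.41 and 1.51 FPKM in tamoxifen replicates 1 to 4. Its mean over the 8 libraries, 1.02 FPKM, was just above the filter of 1 FPKM, and 2.4% of tested genes had a lower vehicle mean. The groups overlapped (log2 fold change 0.21, 95% interval -0.24 to 0.66, limma adjusted p = 0.561). The insulin receptor gene Insr, whose product can pair with IGF1R in hybrid receptors, was 11.7 ± 3.46 times as high as Igf1r in vehicle tumors and 12.9 ± 5.48 times in tamoxifen tumors. Insr measured 9.42 ± 1.07 and 13.7 ± 3.01 FPKM (log2 fold change 0.48, SE 0.17, limma adjusted p = 0.135).

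Igf2r measured 19.3, 31.0, 24.6 and 28.1 FPKM in vehicle and 27.9, 27.0, 42.0 and 26.4 FPKM in tamoxifen replicates 1 to 4. Tamoxifen replicate 3 stood above all others and the remaining tamoxifen values lay inside the vehicle range (log2 fold change 0.24, 95% interval -0.20 to 0.69, limma adjusted p = 0.503). The listed locus (chromosome 17, 12875272 to 13061009, mm9) also holds Airn, the noncoding RNA that runs antisense through part of Igf2r and silences its paternal copy. Airn measured 14.7, 15.2, 11.8 and 14.4 FPKM in vehicle and 70.7, 35.1, 46.9 and 25.02 FPKM in tamoxifen replicates 1 to 4. It rose with no overlap between groups (14.04 ± 1.55 to 44.4 ± 19.6 FPKM, log2 fold change 1.50, SE 0.28, limma adjusted p = 0.0233). Airn was looked at after its values were seen. Its call was lost without any 1 vehicle library and without tamoxifen replicate 2 (highest adjusted p 0.073, with vehicle replicate 3 left out). The call also failed when libraries were scaled to the same total (adjusted p = 0.0629) and with the replicate block (0.0586). Igf2r over Airn was 1.31 to 2.09 in vehicle and 0.394 to 1.06 in tamoxifen tumors. Whether the libraries kept strand is not stated, so reads from Igf2r introns and from Airn cannot be told apart, and both values are uncertain.

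**Figure D3:**
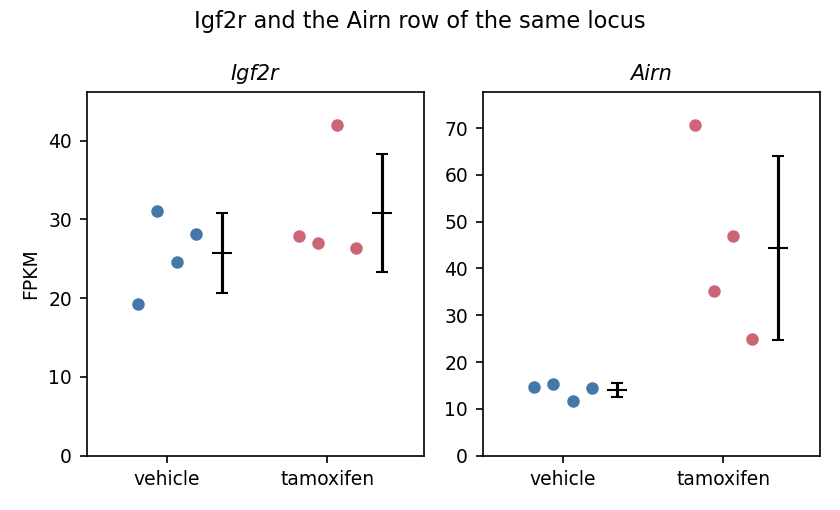
FPKM of Igf2r and Airn in each library, with the mean ± SD beside the points and axes that start at 0. Igf2r overlapped between groups, while Airn was 11.8 to 15.2 FPKM in vehicle and 25.02 to 70.7 FPKM in tamoxifen tumors.

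Igfbp3 encodes the main IGF carrier of blood plasma, which also acts locally in tissues. It measured 35.6, 25.1, 36.2 and 25.6 FPKM in vehicle replicates 1 to 4. It measured 66.0, 98.4, 118 and 71.4 FPKM in tamoxifen replicates 1 to 4. Every tamoxifen tumor lay above every vehicle tumor, and the lowest tamoxifen value, in replicate 1, was well above the highest vehicle value, in replicate 3. Such separation occurred in 15.1% of tested genes, 7.37% with tamoxifen higher and 7.74% with tamoxifen lower. The means were 30.6 ± 6.11 and 88.5 ± 24.4 FPKM (SD, n = 4 each). The log2 fold change was 1.48 (SE 0.22, 95% interval 0.98 to 1.98, limma adjusted p = 0.0118). The exact 2-sided permutation p was 0.0286, the smallest that 70 arrangements of 4 against 4 allow. Of the 15023 tested genes, 92 (0.612%) passed the threshold with a rise at least as large. The call held in all 20 alternative settings, including without each library in turn (log2 fold change 1.33 to 1.61, adjusted p 0.00829 to 0.042). The gene (ENSMUSG00000020427) is listed on chromosome 11 at 7106089 to 7113926 in mm9, a locus that no other gene of the table shares.

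Etv1 belongs to the ETS factors, which bind DNA around the letters GGAA, so the promoters of Igfbp3, the member that rose, and of Igfbp5, which did not, are shown. The sequences are the 250 bases before the RefSeq start site (GRCm38.p6), written along the gene. Igfbp3 is chr11:7213924-7214173 on the minus strand and Igfbp5 is chr1:72874866-72875115 on the minus strand. Capitals mark GGAA on either strand (read as TTCC from the other one) and exact matches to TATATA or TATAAA. Other runs that resemble a TATA box were not searched for and are not marked.
Igfbp3: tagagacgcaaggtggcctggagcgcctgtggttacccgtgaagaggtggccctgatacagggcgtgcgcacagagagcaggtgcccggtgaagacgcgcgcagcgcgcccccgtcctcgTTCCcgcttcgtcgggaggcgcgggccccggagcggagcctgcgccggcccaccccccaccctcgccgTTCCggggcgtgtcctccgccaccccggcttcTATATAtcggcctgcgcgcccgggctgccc
Igfbp5: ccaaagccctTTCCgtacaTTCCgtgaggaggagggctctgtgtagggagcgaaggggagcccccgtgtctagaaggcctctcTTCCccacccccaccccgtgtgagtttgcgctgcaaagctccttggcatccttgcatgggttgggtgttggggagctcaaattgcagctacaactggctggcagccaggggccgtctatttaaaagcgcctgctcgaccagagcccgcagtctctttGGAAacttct

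The Igfbp3 window was 73.2% G and C and held 2 matches to GGAA on either strand, at 130 and 62 bases before the start, and a TATATA beginning 30 bases before it. The Igfbp5 window was 58.8% G and C and held 4 matches to GGAA. All 10 members had RefSeq start sites, 14 in all. GGAA was in 14 of the 14 windows, as in 93.4% of 32851 mouse promoter windows of the same length. The longer ETS site CGGAAG, which contains GGAA, was in 0 of the 14 on either strand, against 13.6% of all windows. TATATA was in 1 of the 14 (5.25% of all) and TATAAA in 2 (12.4% of all), Igfbp4 and Igfbp6. A match is a match of letters only, and its absence covers only these windows.

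Sample identifiers fall into a lower range (3 vehicle and 2 tamoxifen tumors) and a higher range (1 and 2). What the ranges stand for is not stated. Igfbp3 was higher after tamoxifen in both, by 1.31 on the log2 scale in the lower range and by 1.80 in the higher range. Markers of other cell types also differed between the groups, and in whole tumors more cells of a type and more RNA per cell cannot be told apart. Of the 6 pericyte markers fixed for this work, 3 rose (Rgs5, Kcnj8 and Abcc9), and their summed level was 63.6 to 73.6 FPKM in vehicle and 112 to 168 FPKM in tamoxifen tumors. Of 8 endothelial markers 3 rose (Pecam1, Tek and Emcn), while the sum of the list overlapped (255 to 445 against 182 to 420 FPKM). Eng was the largest part of that sum in every library (180 to 366 against 74.6 to 275 FPKM). Its mean was lower after tamoxifen, without passing (limma adjusted p = 0.177). Every other endothelial marker had a positive log2 fold change, from 0.22 (Esam) to 0.93 (Emcn), so the sum mostly reflects Eng. None of 8 fibroblast markers passed (summed level 234 to 397 against 340 to 991 FPKM). Of 8 smooth muscle markers 1 rose, Synpo2, and the summed level of the list was 219 to 409 against 365 to 469 FPKM. Of 8 intestinal epithelium markers 1 rose, Krt18, and the summed level of the list was 944 to 1732 against 1649 to 3575 FPKM. Of 6 tested neutrophil markers 4 rose, Ly6g, S100a8, S100a9 and Retnlg (summed level of the list 9.61 to 37.2 against 181 to 475 FPKM). Csf3r (log2 fold change 0.17, limma adjusted p = 0.858) and Mmp9 (-1.06, adjusted p = 0.359) did not pass. Of 8 T and NK cell markers 6 fell (summed level of the list 192 to 277 against 103 to 124 FPKM). Of the 8 tumor cell markers named earlier 1 fell, Edn3. Red blood cell markers fell (3 of 3 tested, summed level 10.04 to 25.9 against 0.447 to 1.74 FPKM). None passed among 8 macrophage markers (summed level 641 to 960 against 579 to 1270 FPKM) and 4 tested mesothelium markers (summed level 6.90 to 14.9 against 6.22 to 17.7 FPKM). The same held for 6 tested markers of enteric glia and neurons (summed level 51.4 to 89.3 against 33.7 to 70.9 FPKM). The mesothelial marker Krt5 was below 1 FPKM in all 8 libraries. The part of these cell types in the change of Igfbp3 was not tested.

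Candidates for the closest genes were tested genes with no missing value, leaving out predicted, clone-named and some small RNA genes. Those whose log2 level followed Igfbp3 most closely over the 8 libraries were Sox13 (Pearson r = 0.98) and Mt2 (r = 0.98). Sox13 is a transcription factor and Mt2 a metallothionein that binds metal ions. Both also rose after tamoxifen (log2 fold change 0.93 and 1.57, limma adjusted p = 0.023 and 0.0165). Such a correlation holds the difference between groups as well as the differences within them.

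Igfbp4 and Igfbp5, the most abundant members, were high in both groups and did not pass. Igfbp4, an inhibitory binding protein that PAPP-A cuts, measured 641, 535, 944 and 546 FPKM in vehicle replicates 1 to 4 and 268, 426, 908 and 702 FPKM in tamoxifen replicates 1 to 4. Tamoxifen tumors spanned a wider range than vehicle tumors, with replicate 1 lowest and replicate 3 near the vehicle maximum (log2 fold change -0.32, 95% interval -1.18 to 0.55, limma adjusted p = 0.659). The sign of the difference was not shared by the identifier ranges, at -1.02 in the lower and 0.55 in the higher. Without tamoxifen replicate 1 the log2 fold change of Igfbp4 was -0.0016, so the lower mean rests on that library. Igfbp5, a binding protein that also attaches to extracellular matrix, measured 713, 508, 683 and 517 FPKM in vehicle and 382, 520, 600 and 468 FPKM in tamoxifen replicates 1 to 4. The groups overlapped (log2 fold change -0.30, 95% interval -0.73 to 0.13, limma adjusted p = 0.389).

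Igfbp7 followed at 152 ± 12.2 FPKM in vehicle (n = 3) and 192 ± 59.9 FPKM in tamoxifen tumors (n = 4). It measured 165, 141 and 150 FPKM in vehicle replicates 1, 3 and 4 and 111, 216, 189 and 252 FPKM in tamoxifen replicates 1 to 4. The estimate of vehicle replicate 2 failed and was treated as missing. Tamoxifen replicate 1 was below all vehicle values and the other three were above them (log2 fold change 0.27, 95% interval -0.36 to 0.91, limma adjusted p = 0.597). With the failed value taken as 0 the log2 fold change was 2.09, again without passing (adjusted p = 0.473). The listed locus of Igfbp7 (chromosome 5, 77739172 to 77837070, mm9) is shared with Polr2b, an RNA polymerase subunit gene, whose estimate failed in the same library.

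Igfbp2 and Igfbp6 were the scarce binding proteins. Igfbp2, a binding protein abundant in fetal tissue, measured 2.47, 5.03, 5.46 and 2.75 FPKM in vehicle and 1.40, 2.18, 1.59 and 4.19 FPKM in tamoxifen replicates 1 to 4. Of the tamoxifen tumors, replicates 1, 2 and 3 lay below all vehicle values and replicate 4 did not. The log2 fold change was -0.57 (95% interval -1.27 to 0.12, limma adjusted p = 0.308), the largest negative one among the members. Igfbp6, which prefers IGF2 over IGF1, measured 3.90, 1.49, 4.00 and 5.78 FPKM in vehicle and 5.45, 4.34, 3.08 and 4.41 FPKM in tamoxifen replicates 1 to 4. The tamoxifen range lay inside the vehicle range (log2 fold change 0.22, 95% interval -0.46 to 0.90, limma adjusted p = 0.702). Without vehicle replicate 2, the lowest library, its sign turned (-0.07).

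Igfbp2 and Igfbp5 are neighbours on chromosome 1, with 5457 bases between their listed loci (72871077 to 72899048 and 72904506 to 72921458, mm9). Per length, Igfbp5 was 176-fold above Igfbp2 on average in vehicle tumors (101 to 289) and 250.1-fold above it in tamoxifen tumors (111 to 378). Igfbp4 is listed on chromosome 11 at 98902558 to 98915706 and Igfbp6 on chromosome 15 at 101974793 to 101979942. The neighbour of Igfbp3 on chromosome 11, Igfbp1, a binding protein of liver and decidua, was at or below 0.0170 FPKM in all 8 libraries and was not tested.

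The makeup of the binding-protein mRNA pool differed between the groups through Igfbp3. Of the summed FPKM of Igfbp2 to Igfbp6, Igfbp4 and Igfbp5 together held 97.1% ± 0.161 in vehicle and 91.5% ± 1.83 in tamoxifen tumors (SD, n = 4 each). Igfbp3 held 2.35% ± 0.159 and 7.86% ± 1.72. The summed level itself was 1310 ± 283 FPKM in vehicle and 1164 ± 380 FPKM in tamoxifen tumors, ranges that overlapped (1074 to 1673 against 724 to 1631). These sums are given as descriptions with no test. In the order of mean levels, vehicle tumors ran from Igfbp4 and Igfbp5 through Igfbp7, Igf1, Igfbp3, Igf2r, Igf2, Igfbp2 and Igfbp6 down to Igf1r. The ranges of 3 neighbouring pairs overlapped, namely Igfbp4 with Igfbp5, Igfbp3 with Igf2r, and Igfbp2 with Igfbp6. In tamoxifen tumors Igfbp3 reached the level of Igf1, 88.5 against 87.2 FPKM, and their ranges overlapped.

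The ratio of Igfbp5 to Igfbp3 varied little within vehicle tumors (19.8 ± 0.643). Relative to its mean it varied more within tamoxifen tumors (5.68 ± 0.655). For both genes vehicle replicates 1 and 3 lay close together, as did vehicle replicates 2 and 4, so the vehicle libraries gave few distinct levels. Igfbp5 was 19.997, 20.2, 18.9 and 20.2 times Igfbp3 in vehicle replicates 1 to 4 and 5.79, 5.29, 5.08 and 6.55 times Igfbp3 in tamoxifen replicates 1 to 4. The ratio differed between the groups by more than its spread within them, since Igfbp3 was higher after tamoxifen and Igfbp5 was not. Of the 36 pairs of members without a missing value, this pair had the smallest spread within groups, a pooled SD of 0.12 on the log2 scale against a median of 0.65. The next were Igf2 with Igfbp5 (0.16) and Igf2 with Igfbp3 (0.20). Deviations from the group mean of log2 FPKM correlated between Igfbp3 and Igfbp5 at Pearson r = 0.96 and Spearman rho = 0.90 over 8 libraries, and at r = 0.93 without the 2 libraries farthest from the median. For Igf2 with Igfbp5 the values were 0.87, 0.79 and 0.74, and for Igf2 with Igfbp3 0.81, 0.57 and 0.66. The pairs were picked out of 36 after their values were seen, and the 2 values of a library share its scaling.

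**Figure D4:**
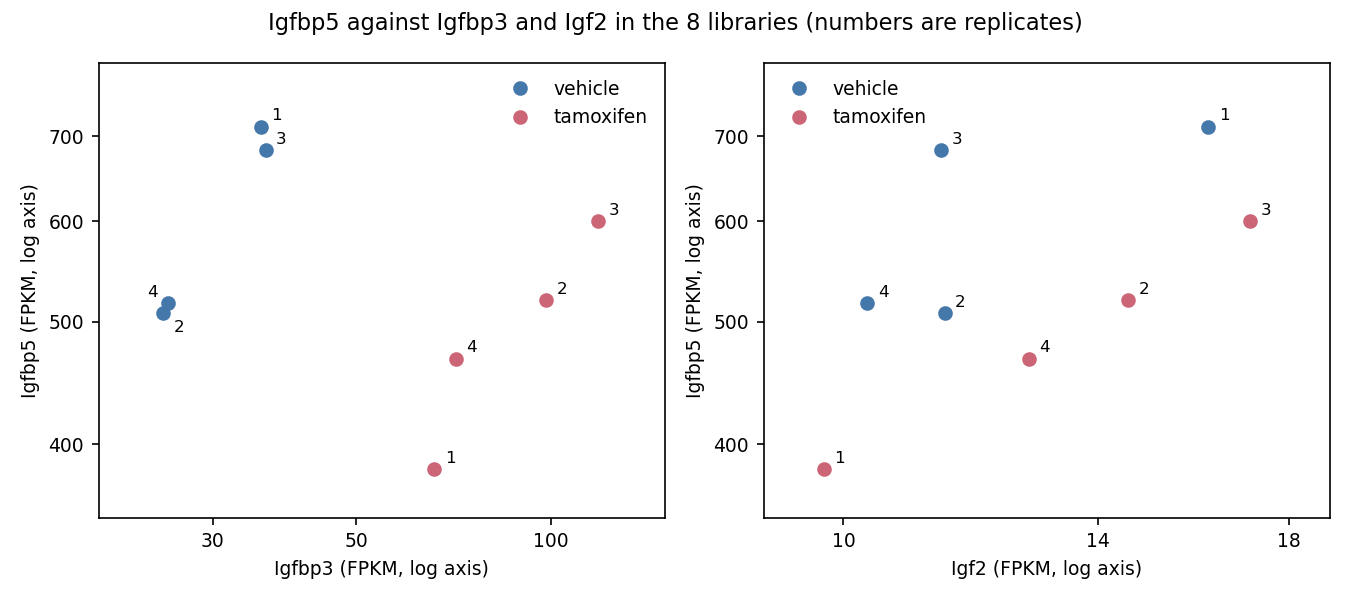
Igfbp5 against Igfbp3 (left) and against Igf2 (right) in FPKM on log axes, 1 point for each library, numbered by replicate. In the left panel the vehicle and tamoxifen points form separate rising lines, at Igfbp5 to Igfbp3 ratios of 18.9 to 20.2 and 5.08 to 6.55. In the right panel the ratios are 44.0 to 60.1 in vehicle and 35.1 to 39.2 in tamoxifen tumors.

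The genes whose log2 levels followed each other member most closely over the libraries are given as a description. They were picked for their correlation from the same candidates as for Igfbp3. Igf1 was closest to H47 (r = 0.96) and Krt222 (0.95), and Igf2 to Sox4 (0.96) and Trmt112 (0.94). Igf1r was closest to Dbndd1 (0.97) and Hnrnpd (0.97), and Igf2r to Ptch1, the hedgehog receptor gene (0.97), and Phf20 (0.97). Among the binding proteins, Igfbp2 was closest to Cs, the citrate synthase gene (0.96), and Gys1, the muscle glycogen synthase gene (0.96). Igfbp4 was closest to Mier2 (0.97) and Timeless (0.97), Igfbp5 to Fbxo46 (0.98) and Prcc (0.97), and Igfbp6 to snoU6-77 (0.92) and Traj22 (0.91). Igfbp7 was closest to Fam40a (0.97) and Slc6a9 (0.96) over 7 libraries. The 2 values of a library share its scaling.

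Around the members, 6 of the 65 tested genes on 5 pathway lists were called, 4 upward and 2 downward. Over all 15023 tested genes 5.45% were called, 2.38% upward and 3.07% downward, and 7600 had a positive log2 fold change. In all, 84 of the 85 listed genes were in the table. Of the carriers, proteases and their regulators, 0 of 8 tested genes passed (median log2 fold change 0.30, 7 of 8 positive), and 1 of the 8 had a raw p under 0.05, against 3365 of all 15023 tested genes. Stc2 and Stc1 encode stanniocalcins, inhibitors of PAPP-A. Stc2 measured 1.96 ± 0.0911 and 4.35 ± 1.80 FPKM in vehicle and tamoxifen tumors (limma adjusted p = 0.0825). Stc1 measured 1.21 ± 0.511 and 2.06 ± 0.567 FPKM (adjusted p = 0.242). Stc2 passed under library quality weights (adjusted p = 0.037) and without tamoxifen replicate 3 (0.0342).

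In the list of the insulin receptor, its adaptors and the PI3K-AKT-mTOR relay, 2 of 27 tested genes fell, 1 rose and 24 did not pass (median 0.02). Both falls were adaptors that link receptors to Ras. Shc1 measured 82.4, 125, 125 and 202 FPKM in vehicle and 34.7, 44.4, 61.4 and 48.2 FPKM in tamoxifen replicates 1 to 4, with no overlap. It fell by 1.44 on the log2 scale (SE 0.28, limma adjusted p = 0.0247). Grb2 was at 82.9 ± 19.8 FPKM in vehicle and 43.7 ± 7.87 FPKM in tamoxifen tumors, a fall (log2 fold change -0.90, SE 0.20, limma adjusted p = 0.0396). Grb10, an imprinted adaptor that binds and restrains the insulin and IGF1 receptors, measured 2.41, 4.38, 2.45 and 2.70 FPKM in vehicle and 9.77, 12.1, 5.05 and 6.31 FPKM in tamoxifen replicates 1 to 4. It rose by 1.18 on the log2 scale (SE 0.27, limma adjusted p = 0.0432), and again the groups did not overlap. The kinase genes Pik3ca, Akt1 and Mtor did not pass. Each of these 3 calls depended on single libraries. Shc1 missed the threshold without any 1 of vehicle replicates 2, 3 and 4 and tamoxifen replicates 1 and 2 (adjusted p up to 0.0702). Grb2 missed it without any 1 library except vehicle replicate 1 or tamoxifen replicate 3 (up to 0.0962), and Grb10 without any 1 except tamoxifen replicate 3 (up to 0.12).

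Of 15 tested FoxO factors and genes that FoxO factors activate, 2 rose and 13 did not pass (median 0.43, 12 of 15 positive). FoxO factors are held out of the nucleus by AKT. Klf15, a zinc finger factor, was at 1.11 ± 0.367 FPKM in vehicle and rose to 4.71 ± 1.82 FPKM after tamoxifen (log2 fold change 1.39, limma adjusted p = 0.0267), and Foxo3 itself was at 8.68 ± 0.869 FPKM in vehicle and 12.7 ± 1.41 FPKM in tamoxifen tumors (0.50, adjusted p = 0.0492). The call of Klf15 was lost without any 1 library except tamoxifen replicate 4 (adjusted p up to 0.0777), and that of Foxo3 without any 1 of the 8 (up to 0.128).

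Of 9 tested genes among Igf2 mRNA-binding proteins and imprinted genes, 1 rose (median 0.18). This was Cdkn1c, an imprinted cyclin-dependent kinase inhibitor gene on chromosome 7, as Igf2 is. Cdkn1c measured 9.29, 4.29, 7.86 and 7.03 FPKM in vehicle and 30.5, 34.8, 33.4 and 18.1 FPKM in tamoxifen replicates 1 to 4, with no overlap. Its log2 fold change was 1.90 (SE 0.26, limma adjusted p = 0.0103), and the call held in all 20 alternatives (adjusted p 0.00684 to 0.0412). H19, the noncoding RNA gene beside Igf2, measured 11.7 ± 4.41 and 6.00 ± 4.60 FPKM (adjusted p = 0.23). In the growth hormone and Stat5 list, which controls Igf1 in liver, 0 of 6 tested genes passed, and 3 of the 6 had a raw p under 0.05, against the same 3365 of 15023 overall. The growth hormone receptor gene Ghr measured 5.68 ± 0.697 and 10.3 ± 3.00 FPKM (limma adjusted p = 0.0683), and the signal inhibitor gene Socs3 10.1 ± 3.53 and 20.3 ± 6.52 FPKM (adjusted p = 0.104). Ghr passed under library quality weights (adjusted p = 0.0464) and without tamoxifen replicate 4 (0.0406).

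**Figure D5:**
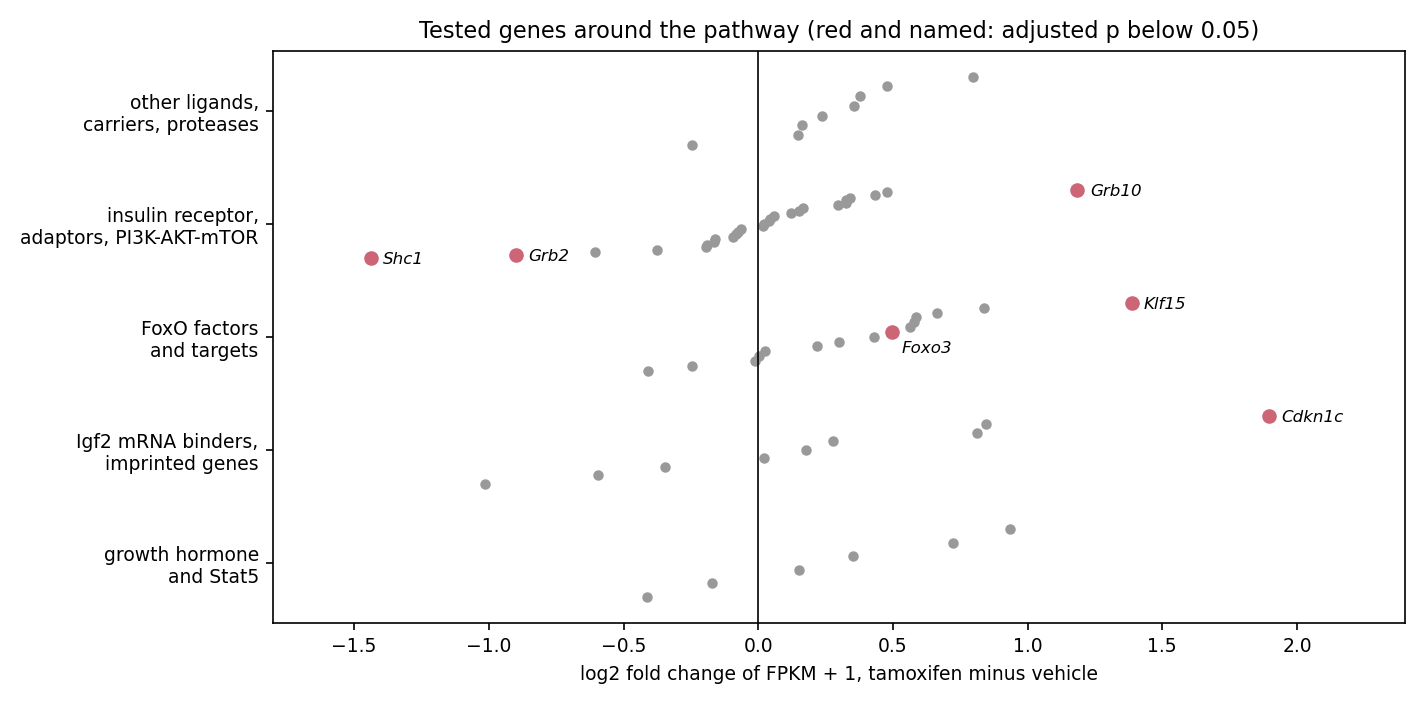
Log2 fold change of FPKM + 1, tamoxifen minus vehicle, for the 65 tested genes of the 5 pathway lists, 1 point for each gene and sorted within a list. The 6 red points, named, passed the threshold: Shc1 and Grb2 to the left of 0, and Grb10, Klf15, Foxo3 and Cdkn1c to the right.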

How the data were processed

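RNA of 8 cecal tumors was sequenced. Per the submitters' processing notes, STAR 2.3, Cufflinks and Cuffdiff were used with mm9, and the authors deposited 1 table of FPKM per gene. Rows of 1 symbol were summed, and the 178 values with a FAIL or HIDATA status were treated as missing. No counts were used, so only relative depth is known. Genes with a mean of at least 1 FPKM and at least 2 estimates in each group (15023 of 34586 symbols) were tested with limma 3.58.1 in R 4.3.3. The test was 2-sided, on log2(FPKM + 1), with a mean-variance trend and Benjamini-Hochberg adjustment. On simulated data of 14975 genes for this comparison, the recovery was 63% for a log2 change of 1 and 95% for a log2 change of 2, with 2 false calls in 160. The changes were planted only in genes with a mean log2(FPKM + 1) above 2, with noise drawn independently for each gene and library. Recovery for lower genes, such as Igf1r, was therefore not measured. Members and lists were chosen with earlier results of these data known. Named from each list were up to 4 genes past the threshold or, where none passed, the 2 with the smallest p. For each member the 2 most correlated genes were named, from the candidates described above. H19, Insr, Igfbp1, Airn, Polr2b and the 3 kinase genes were added after their values were seen. Alternatives covered pseudocounts, filters, scaling, missing values, symbol rows, weights, robust fits, identifier range, replicate block and each library left out. Promoters come from RefSeq (GRCm38.p6), whose coordinates are not those of mm9. Listed loci follow the deposited table and can span overlapping genes.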

Additional observations from a re-analysis of the deposited data

Results flagged for a closer look

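Within groups of 4 libraries, a sample was picked out when its gap to the nearest other sample, divided by the group's range, was above the 95% critical value of Dixon's test. Of 43 groups of 4 examined, 2 had such a sample, and chance gives about 1 in 20. Igf2r in tamoxifen replicate 3 measured 42.0 FPKM, against 26.4 to 27.9 FPKM in the other tamoxifen tumors (gap over range 0.906). Grb10 in vehicle replicate 2 measured 4.38 FPKM, against 2.41 to 2.70 FPKM in the other vehicle tumors (0.849), and stayed below every tamoxifen tumor.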

How the results depend on the processing

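The number of members past the threshold was 1 in all 20 alternatives, and it was Igfbp3 each time. Of 194 values of single members under the alternatives, 188 kept their direction and side of the threshold and 6 turned sign, none of them of a called gene. The log2 fold change of Igf1 was -0.079 with library quality weights, -0.017 with the identifier range as a covariate and -0.12 to 0.25 with 1 library left out. That of Igfbp6 was -0.066 (without vehicle replicate 2) to 0.42 with 1 library left out. The count of all genes past the threshold, 819, was 534 with a mean of at least 5 FPKM, 229 with libraries scaled to the same total, 252 with the replicate block and 268 to 856 with 1 library left out. The 6 calls among the pathway lists came to 3 with no filter, 3 with a mean of at least 5 FPKM, 1 with the same total, 3 with the replicate block and 1 to 5 with 1 library left out. The cause was not tested. Some of these fits held fewer genes or libraries than the main one, and the fit with no filter held more genes. Same-numbered libraries deviated together at correlations of -0.16, -0.00, 0.14 and 0.06. Differently numbered libraries gave -0.15 to 0.15, so no pairing by number was seen, which does not exclude one. Igf1r, Igfbp2 and Igfbp6 were not tested at a mean of at least 5 FPKM, nor Igf1r without vehicle replicate 4, tamoxifen replicate 3 or tamoxifen replicate 4, since it then fell under the filter. Scaling moved the median of all genes by at most 0.05.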

Other observations

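Of the 84 listed pathway genes in the table, 16 fell below the filter of 1 FPKM, 2 (Ins1 and Ins2, the insulin genes) were listed at 0 in all 8 libraries, and the estimate of Socs2 failed in all 8. The genes named next were picked from those 16 after their values were seen, with statistics from the fit with no filter. Insrr, the insulin receptor-related receptor gene, measured 1.02 to 1.37 FPKM in vehicle and 0.210 to 0.543 FPKM in tamoxifen tumors (log2 fold change -0.73, SE 0.10, limma adjusted p = 0.0207), and its listed locus is shared with 3 other genes, Pear1, Arhgef11 and Gm6570. Pappa, which encodes the protease that cuts IGFBP4, measured 0.157 to 0.369 FPKM in vehicle and 0.469 to 2.78 FPKM in tamoxifen tumors (log2 fold change 0.79, SE 0.27, limma adjusted p = 0.167). The groups did not overlap for Pappa, but the difference did not pass. Igf2bp1, which encodes a fetal binder of Igf2 mRNA, measured 0.0252 to 0.0837 FPKM in vehicle and 0.166 to 0.355 FPKM in tamoxifen tumors (limma adjusted p = 0.0691).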
